A study of Mus musculus with 12 samples.

Results

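The 39 genes described here are the muscle and regulatory genes of the developing heart, among 19751 named mouse genes on the array. They were chosen by name and known role, with earlier results of these data known. Of these genes, 18 code for proteins of the contractile apparatus and 3 for secreted factors. A further 5 code for calcium handling, pacemaking and cell junction proteins, and 13 for regulators, mostly transcription factors. All 39 had a probe, and 38 were well above background on all 12 arrays and were tested. The pacemaker channel gene Hcn4 did not rise well above background on a single array, and was not tested.

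Each array held RNA of female embryos at embryonic day 9.5, whole except for the yolk sac, on a mixed C3HeB/FeJ background. The embryos came from matings of heterozygous whirligig mice and were Chd7+/+ (wild type), Chd7Whi/+ (heterozygous) or Chd7Whi/Whi (homozygous), with 4 biological replicates per genotype. The study asked which genes depend on functional Chd7 when neural crest cells migrate. Chd7 is a chromatin remodeller whose loss of function in people causes CHARGE syndrome, in which heart defects are common. The allele is a germline mutation with no tissue-specific driver, and the mothers of all 3 groups were heterozygous for it. The labels do not say whether an array held 1 embryo or a pool, nor whether replicates came from different litters, so p-values measure the spread between these samples. Replicate numbers follow the order of deposit and only name an array.

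At this age the mouse heart is a looped, beating tube with atrial and ventricular chambers, fed by progenitor cells of the second heart field. Sarcomeres form when thick filaments of myosin and thin filaments of actin, with their troponin switch, are assembled on scaffolds such as titin and alpha-actinin. The transcription factors Nkx2-5, Gata4 and Tbx5 and the serum response factor cofactor myocardin switch these genes on, while Tbx2 and Tbx3 hold chamber genes off in the atrioventricular canal and outflow tract. The natriuretic peptides mark chamber muscle, and Bmp10 is secreted by the trabeculae. Several of the regulators also act outside the heart: Hand1 in lateral mesoderm and trophoblast, Tbx2, Tbx3 and Tbx5 in the limb buds, Gata4 and Gata6 in endoderm. In whole embryos, fewer heart muscle cells and less RNA per cell cannot be told apart.

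The values of 1 array, described further on, set the genes apart from each other, so the promoters of its 4 furthest-moved genes with a sequence are shown first, followed by the furthest-moved gene whose promoter holds a serum response factor site, and by Bmp10, which did not move down on that array. Each sequence is the 250 bases before the transcription start of the RefSeq annotation on GRCm38.p6, written 5′ to 3′ along the gene. Capitals mark matches to letters bound by GATA factors, NKX2-5, T-box factors or serum response factor, and the TATA box.
Nppa, chr4:148000472-148000721, plus strand: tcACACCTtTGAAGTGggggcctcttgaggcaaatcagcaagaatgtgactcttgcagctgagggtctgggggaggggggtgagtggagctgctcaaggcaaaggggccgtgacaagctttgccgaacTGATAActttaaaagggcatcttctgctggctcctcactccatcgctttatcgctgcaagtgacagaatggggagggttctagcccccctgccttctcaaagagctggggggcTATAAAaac
Myl2, chr5:122092474-122092723, plus strand: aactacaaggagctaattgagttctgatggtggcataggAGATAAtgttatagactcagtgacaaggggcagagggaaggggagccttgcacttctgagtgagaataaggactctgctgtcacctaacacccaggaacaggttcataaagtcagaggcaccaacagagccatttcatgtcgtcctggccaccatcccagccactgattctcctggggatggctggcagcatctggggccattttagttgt
Myh6, chr14:54966608-54966857, minus strand: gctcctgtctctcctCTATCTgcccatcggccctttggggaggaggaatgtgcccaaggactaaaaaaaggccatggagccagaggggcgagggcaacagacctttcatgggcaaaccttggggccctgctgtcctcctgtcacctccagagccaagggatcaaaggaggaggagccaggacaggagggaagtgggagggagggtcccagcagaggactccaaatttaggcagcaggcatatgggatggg
Csrp3, chr7:48848052-48848301, minus strand: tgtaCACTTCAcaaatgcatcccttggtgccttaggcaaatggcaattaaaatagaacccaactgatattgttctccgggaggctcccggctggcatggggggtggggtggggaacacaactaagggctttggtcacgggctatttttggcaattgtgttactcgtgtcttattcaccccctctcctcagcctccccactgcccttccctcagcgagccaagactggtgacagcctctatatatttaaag
Actc1, chr2:114052876-114053125, minus strand: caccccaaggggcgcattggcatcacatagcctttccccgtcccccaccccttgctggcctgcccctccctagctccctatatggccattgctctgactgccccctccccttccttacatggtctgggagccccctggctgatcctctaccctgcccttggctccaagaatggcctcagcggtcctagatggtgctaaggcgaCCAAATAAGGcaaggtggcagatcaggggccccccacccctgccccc
Bmp10, chr6:87428744-87428993, plus strand: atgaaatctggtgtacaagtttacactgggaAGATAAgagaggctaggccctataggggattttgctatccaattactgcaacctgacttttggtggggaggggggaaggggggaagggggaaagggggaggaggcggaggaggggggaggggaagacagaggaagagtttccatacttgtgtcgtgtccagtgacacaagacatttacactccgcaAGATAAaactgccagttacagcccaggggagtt

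The Nppa promoter held a T-box match 248 bases upstream of the start, an NKX2-5 match at 241, a GATA match at 122 and a TATA box at 9. Myl2 had a GATA match at 211, Myh6 at 235 and Bmp10 at 219 and 33 bases upstream, Csrp3 an NKX2-5 match at 246, and Actc1 the serum response factor CArG box at 47. Promoters of this length were at hand for 30 of the 39 genes and for 27025 genes in all, and both strands were searched. The GATA letters (AGATAA and AGATAG, and TGATAA and TGATAG) occurred in 10 of 30 members, 33.3%, and in 27.1% of all promoters. The NKX2-5 letters (TNAAGTG) occurred in 13.3% against 10%, the T-box letters (AGGTGT) in 13.3% against 12% and the TATA box (TATAAA) in 10% against 13%. A CArG box was found in 5 of 30 members (Actc1, Ldb3, Myl3, Myl7 and Myom1), 16.7%, and in 1.4% of all promoters. All 5 were contractile genes, 29.4% of the 17 contractile genes with a promoter. The MEF2 motif was found in Ttn alone, 3.33% of members against 1.73%. The E-box (CANNTG), not marked in capitals, occurred in 70% of members and 66% of promoters. The CArG box reads as a match on both strands at the same place and was counted once, and no marked match overlapped one of another motif. A match is a stretch of letters and not a site of binding, which was not measured.

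All values below are the log2 of an array's processed signal minus that array's 75th percentile, so 0 is the level of that percentile, and a difference of 1 is 2-fold. The percentile lay between 1095 and 1721 signal units, and the share of probes well above background was 69.1% to 75.7% per array. Arrays lay on 3 slides, each holding all 3 genotypes. No probe was tied to Chd7 itself through the gene table, so its level was not analysed here. One array stood apart in the cardiac genes. On heterozygous replicate 1, 31 of the 38 genes had their lowest value of the 12 arrays, as did 4.85% of all genes measured on every array. Against the median of the other 11 arrays, 23 of the 38 were lower by over 2 on the log2 scale, compared with 102 of 22557 genes, 0.452%, and 0 were higher by over 2 (0.164% of genes). On each of the other 11 arrays, none of the 38 lay past 2 in either direction. Over all genes that array correlated with the others at 0.987 to 0.991, inside the range of the other pairs (0.983 to 0.995). The comparisons of the 38 genes are therefore given with and without that array. Many results for genes of other lists are given with all 12 arrays only.

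**Figure D1:**
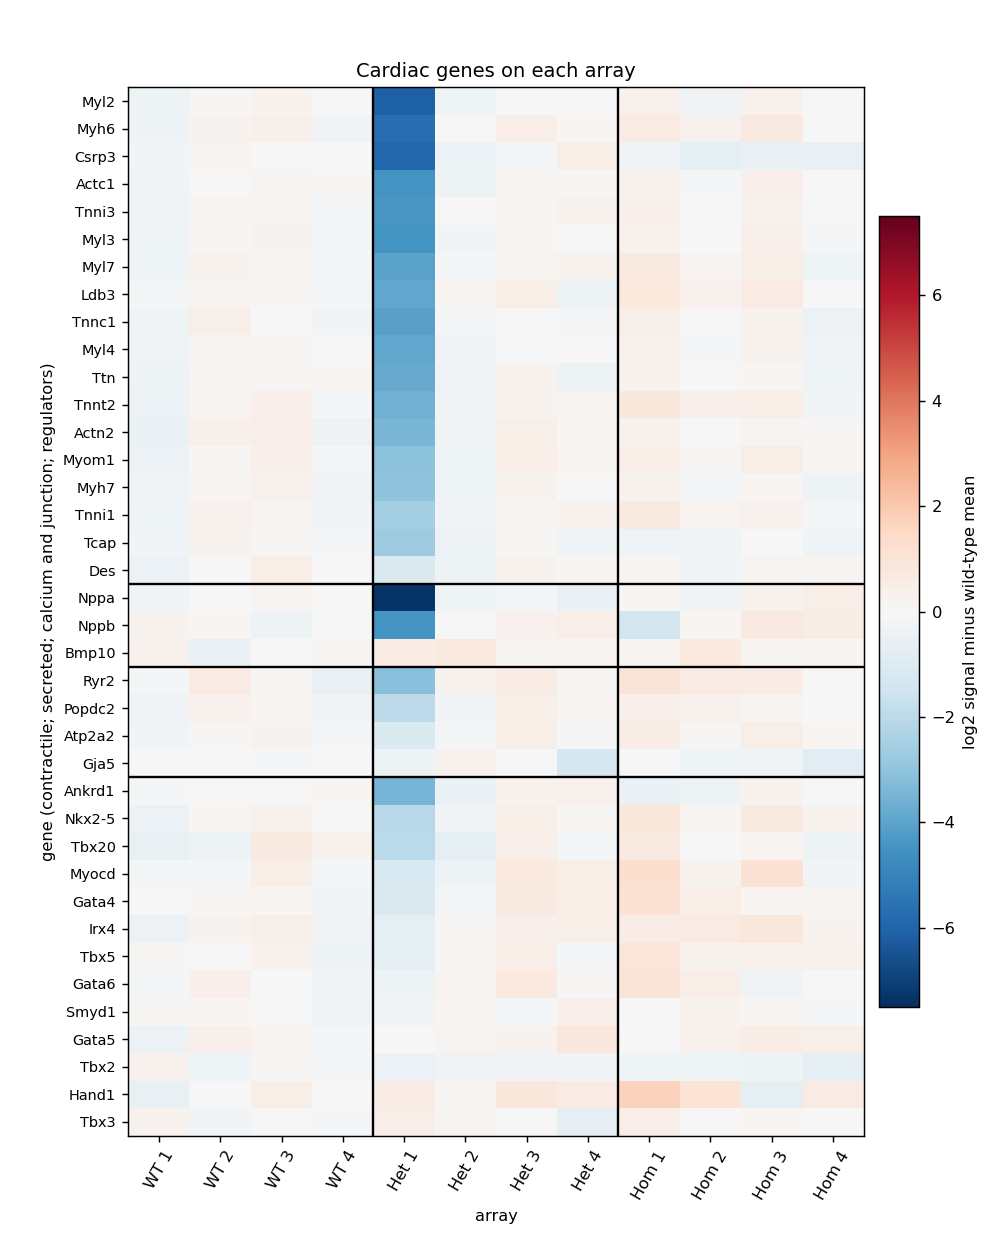
Level of the 38 tested genes (rows, grouped by role) on each of the 12 arrays (columns, by genotype), as scaled log2 signal minus the wild-type mean of the gene. Blue is lower and red higher. The column of heterozygous replicate 1 is dark blue for the contractile genes, with 18 of 18 at their lowest there, while the other columns stay pale.

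The contractile genes did not separate the genotypes past the threshold, and 1 array stood far below the rest. All 18 were lowest on heterozygous replicate 1, by a median of 3.99 on the log2 scale below the other 11 arrays, and 17 of 18 by over 2. In a fit to the other 11 arrays none of the 18 passed the threshold in any of the 3 comparisons, and each gene stayed within a range of 1.27 at most. The regulatory light chain of ventricular myosin, Myl2, was at 3.19, 3.63, 3.82 and 3.55 in wild type, at -2.59, 3.20, 3.59 and 3.51 in heterozygotes and at 3.85, 3.30, 3.88 and 3.56 in homozygotes. The heterozygous replicate 1 value was 71.3-fold below the median of the other arrays, and those 11 overlapped between genotypes.

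Myh6, the alpha myosin heavy chain, gave 4.29, 4.92, 5.07 and 4.37 in wild type, -1.05, 4.70, 5.19 and 4.82 in heterozygotes and 5.28, 4.98, 5.35 and 4.66 in homozygotes. The low array was 62.4-fold below the others. Myh7, the beta heavy chain and the neighbour of Myh6 on chromosome 14, was 8.58-fold lower there. The 2 genes are near-identical copies, and how far their probes read each other's transcript was not tested. A second Myh6 probe was not well above background on that array, and was at least 12.3-fold below the median of the other 11 there.

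Csrp3, the muscle LIM protein of the Z-disc, gave 0.46, 0.87, 0.68 and 0.62 in wild type, -5.22, 0.21, 0.59 and 1.07 in heterozygotes and 0.40, 0.01, 0.16 and 0.09 in homozygotes. All 4 homozygous arrays lay below all 4 wild-type arrays, the one gene of the 38 with arrays that did not overlap in that comparison (8.18% of all genes did not overlap in the lower direction). Actc1, the cardiac alpha-actin, gave 5.96, 6.23, 6.48 and 6.33 in wild type, 1.78, 5.86, 6.41 and 6.4 in heterozygotes and 6.58, 6.18, 6.62 and 6.23 in homozygotes, and was 23.5-fold lower on the low array.

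Ldb3, which anchors alpha-actinin at the Z-disc, gave -1.28, -0.96, -1.09 and -1.33 in wild type, -5.07, -0.98, -0.75 and -1.52 in heterozygotes and -0.37, -0.81, -0.54 and -1.11 in homozygotes. Tcap, the titin cap, gave -1.42, -0.97, -1.14 and -1.37 in wild type, -3.91, -1.67, -1.12 and -1.54 in heterozygotes and -1.52, -1.55, -1.25 and -1.53 in homozygotes. In both genes the groups overlapped once the low array was set aside. On that array Ldb3 was 17.0-fold and Tcap 5.62-fold below the other arrays. The other light chains and troponins were also far lower there: cardiac troponin I (Tnni3) was lower by 4.52, Myl3 by 4.52, Myl7 by 4.24, troponin C (Tnnc1) by 4.05, Myl4 by 3.94, titin (Ttn) by 3.86 and cardiac troponin T (Tnnt2) by 3.82. The slow skeletal troponin I Tnni1, which the embryonic heart also uses, was lower by 2.77, the M-band protein Myom1 by 3.23 and alpha-actinin 2 (Actn2) by 3.57. Desmin (Des), an intermediate filament protein of all muscle, moved least of the 18, lower by 1.2.

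**Figure D2:**
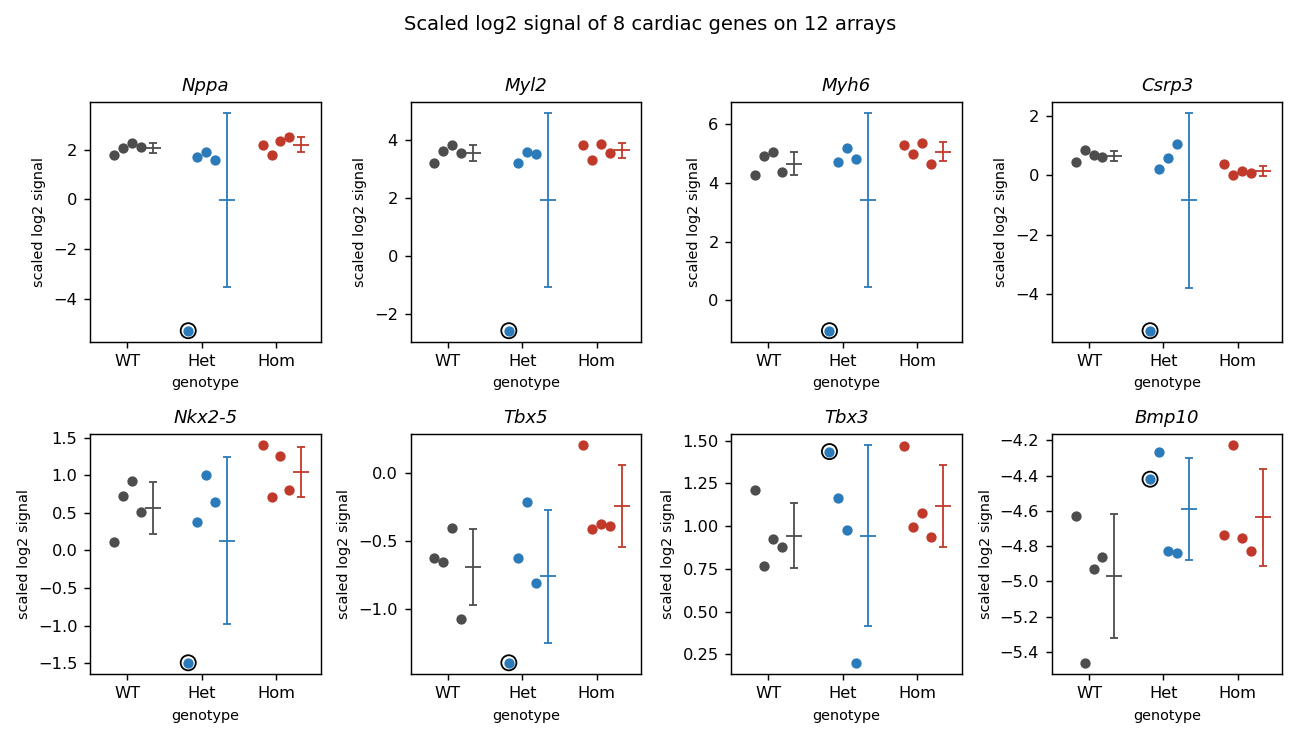
Scaled log2 signal of 8 cardiac genes on each array, by genotype, with an axis of its own for each gene. Points are arrays, bars are the mean with the SD, and the black circle marks heterozygous replicate 1, which lies at -5.29 for Nppa, below all other arrays, and at 1.44 for Tbx3, among the highest.

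The secreted factors split. Nppa, the atrial natriuretic peptide, gave 1.79, 2.08, 2.26 and 2.09 in wild type, -5.29, 1.71, 1.88 and 1.57 in heterozygotes and 2.20, 1.76, 2.34 and 2.49 in homozygotes. This was the furthest any of the 38 genes moved: 165-fold, to 0.606% of the median of the other arrays, and 6.85 on the log2 scale below the lowest of them, whose whole range was 0.92. The SD over the replicate spots of the Nppa probe on an array was 0.013 to 0.197. Nppb, the B-type natriuretic peptide and the neighbour of Nppa on chromosome 4, gave -1.12, -1.23, -1.77 and -1.43 in wild type, -5.89, -1.41, -1.08 and -0.89 in heterozygotes and -2.76, -1.23, -0.72 and -0.83 in homozygotes, with homozygous replicate 1 the second lowest. Bmp10, which the trabeculae secrete, gave -4.63, -5.46, -4.93 and -4.86 in wild type, -4.42, -4.26, -4.83 and -4.84 in heterozygotes and -4.74, -4.23, -4.75 and -4.83 in homozygotes. Heterozygous replicate 1 was among the higher Bmp10 values, 0.41 above the median of the others. The Bmp10 probe was dim beside those of Nppa and Nppb, though well above background on all 12 arrays. The lowest signal well above background on heterozygous replicate 1 was -6.69.

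Of the calcium and junction genes, Ryr2, the calcium release channel of the sarcoplasmic reticulum, gave -2.42, -1.71, -2.23 and -2.88 in wild type, -5.43, -2.06, -1.73 and -2.22 in heterozygotes and -1.34, -1.70, -1.74 and -2.26 in homozygotes. Atp2a2, the calcium pump that refills that store and is also expressed outside muscle, gave 0.90, 1.16, 1.37 and 0.96 in wild type, 0.00, 1.0, 1.53 and 0.94 in heterozygotes and 1.65, 1.18, 1.52 and 1.25 in homozygotes. On heterozygous replicate 1 Ryr2 was 10.3-fold lower and Atp2a2 2.26-fold lower than the other arrays. Popdc2, a cyclic AMP binding protein of heart and skeletal muscle membranes, was 4.42-fold lower there. The gap junction gene Gja5, expressed in atrial and trabecular muscle and in arterial endothelium, was only 1.29-fold lower, and its lowest value, -3.03, was on heterozygous replicate 4.

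The 13 regulators had a median of -0.98 on the log2 scale on that array, and 2 of them were lower by over 2. Ankrd1, a Z-disc and nuclear protein that represses cardiac genes, was lower by 3.44, and Nkx2-5, the homeobox factor of heart progenitors and muscle, by 2.22. Nkx2-5 gave 0.11, 0.72, 0.92 and 0.52 in wild type, -1.50, 0.37, 1.0 and 0.64 in heterozygotes and 1.40, 0.71, 1.25 and 0.80 in homozygotes, so the low array lay under all others. Tbx20, a T-box factor of the heart, was lower by 1.98, myocardin (Myocd) by 1.39 and Gata4 by 1.24. Irx4, the homeobox gene of ventricular muscle, gave -1.67, -0.96, -0.81 and -1.43 in wild type, -1.89, -1.11, -0.86 and -0.77 in heterozygotes and -0.64, -0.62, -0.37 and -0.95 in homozygotes, and the homozygous and wild-type values overlapped.

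The remaining regulators stayed nearer to the other arrays. Tbx5, a factor of the left ventricle, atria and forelimb, gave -0.63, -0.65, -0.41 and -1.07 in wild type, -1.39, -0.62, -0.22 and -0.81 in heterozygotes and 0.20, -0.41, -0.37 and -0.39 in homozygotes, and was lower by 0.98 on the low array. Gata6 was lower by 0.48 there, Gata5 by 0.23 and the muscle methyltransferase Smyd1 by 0.24. Tbx2 gave -1.02, -1.69, -1.25 and -1.46 in wild type, -1.77, -1.63, -1.64 and -1.56 in heterozygotes and -1.65, -1.67, -1.76 and -2.02 in homozygotes, and was lower by 0.13 on the low array. Tbx3 gave 1.21, 0.77, 0.92 and 0.88 in wild type, 1.44, 1.16, 0.98 and 0.20 in heterozygotes and 1.47, 0.99, 1.07 and 0.94 in homozygotes. On the low array Tbx3 was higher by 0.46 and Hand1 by 0.11. Smyd1 had a second probe, lower by 1.13 on that array, and the second probes of Atp2a2 and Ldb3 were lower by 0.24 and 0.36. Tbx20 had 2 further probes, lower by 1.25 and 1.23, so for these 4 genes the size depended on the probe.

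The same array was read against gene lists of neighbouring tissues. Of the 35 tested genes of a list of other heart muscle genes, 20 were lower by over 1 (1.02% of all genes were), with a median of -1.72. Cox6a2, a cytochrome oxidase subunit of muscle, was lower by 4.71, the myosin binding protein Mybpc3 by 4.10, the small heat shock protein Hspb2 by 4.03 and the potassium channel gene Kcnj5 by 4.01. None of 18 genes of the second heart field and outflow tract (median -0.08), of 22 endocardial and endothelial genes (0.04) or of 18 Bmp and Notch signal genes (-0.07) was lower by over 1. Of 10 epicardial genes 1 was, Msln, which was not well above background there and at least 1.13-fold lower. The counts include genes whose probe was not well above background on that array.

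Of the markers of other tissues, 0 of 11 erythroid genes (median 0.21) and 0 of 7 trophoblast genes (0.01) were lower by over 1, and 1 of 14 liver bud genes was (-0.39). Among 15 skeletal muscle genes (median -0.45) 5 were lower by over 1, led by the perinatal myosin Myh8 at 4.55 lower. In the same list 1 was higher by over 1, Myog, at -4.48 against a median of -5.53 on the other 11 arrays. Among 4 smooth muscle genes 2 were lower by over 1, led by Cnn1 at 3.16 lower. There too 1 was higher by over 1, Tagln, at 4.99 against 3.88. The summed linear level of the skeletal list was 1.34 to 11.3 times the 75th percentile in heterozygotes, 7.84 to 11.1 in wild type and 8.46 to 11.4 in homozygotes. Among 5 genes of limb and lateral mesoderm, which share T-box and Hand factors with the heart, 2 were higher by over 1. They were the homeobox genes Hoxd11, higher by 3.43, and Pitx1, higher by 1.70. Of all 22575 genes, 205 were higher by over 1. The median of the limb list was 0.88, and its lowest gene, Meis1, was lower by 0.17. The 5 named genes furthest above the other arrays, picked after their values were seen, were Evx1 by 5.66, Hoxc10 by 5.16, Cdx4 by 4.35, Hoxa11os by 4.31 and Snx29 by 3.74. Of the other 11 arrays, Hoxc10 was well above background on 9 and Cdx4 on 8. The part of other tissues in the values of this array was not tested.

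**Figure D3:**
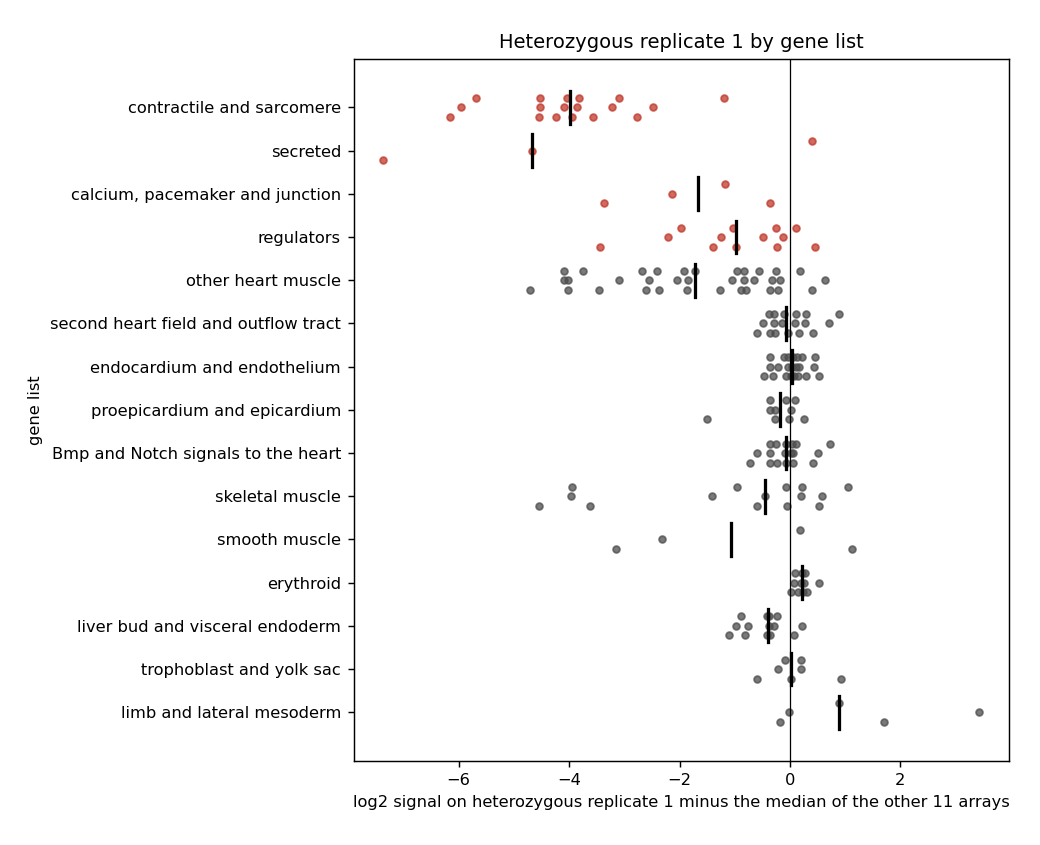
Each point is 1 gene: its log2 signal on heterozygous replicate 1 minus the median of the other 11 arrays, by list, with the line at the list's median and the 38 genes in red. The contractile genes reach down to -6.16 and the other heart muscle genes to -4.71, and the endothelial and second heart field lists lie around 0.

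Homozygous embryos were compared with wild type to ask what loss of functional Chd7 does to the heart genes. None of the 38 passed the threshold in limma with Benjamini-Hochberg adjustment over 22575 genes (smallest adjusted p = 0.182), where 1.35% of all genes did. Their levels lay slightly above wild type: 32 of 38 were higher, with a median of 0.18 on the log2 scale, against 53.5% higher and a median of 0.02 over all genes. By role the medians were 0.15 for contractile genes (15 of 18 higher), 0.14 for secreted factors, 0.26 for calcium and junction genes and 0.33 for regulators (11 of 13 higher). These small differences were not even across slides: the median of the 38 was 0.65 on slide 1, -0.09 on slide 2 and 0.26 on slide 3. Homozygous replicate 1 alone held the highest of 12 values for 19 of the 38. With the number in the sample titles as a block, the median of the 38 was -0.25.

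How firmly this bounds a change rests on the array that stood apart, since all 12 arrays share 1 estimate of the spread. With all 12, the difference in Myh6 was 0.41 ± 1.08 (SE) with a 95% interval from -1.96 to 2.77, and 1 of 18 contractile genes had an interval inside ±1. Without heterozygous replicate 1, an array picked by the values of these same genes, the Myh6 interval ran from -0.07 to 0.88. In that fit, which held no block, 18 of 18 lay inside ±1, so a 2-fold change of a contractile gene was outside each interval. Over the 38 genes the count inside ±1 went from 10 to 33, and the median width from 2.36 to 0.894. None passed the adjusted threshold in either fit (1.27% of all genes did in the second).

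An unadjusted p under 0.05 was reached by 2 of the 38 with all arrays and by 6 without heterozygous replicate 1. Over all genes 17% and 16.2% reached it, so the 38 held no excess. None of the 6 passed after adjustment. Irx4 differed by 0.57 ± 0.20 (SE, limma adjusted p = 0.207), Tbx5 by 0.45 ± 0.19 (adjusted p = 0.293), Nkx2-5 by 0.48 ± 0.21 (adjusted p = 0.307) and Ldb3 by 0.45 ± 0.20 (adjusted p = 0.294). Tbx2 differed by -0.42 ± 0.14 (adjusted p = 0.207) and Csrp3 by -0.49 ± 0.17 (adjusted p = 0.218). The largest estimate was that of Hand1, 0.67 ± 0.41 with all arrays, whose homozygous values ran from -2.08 to 0.31.

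**Figure D4:**
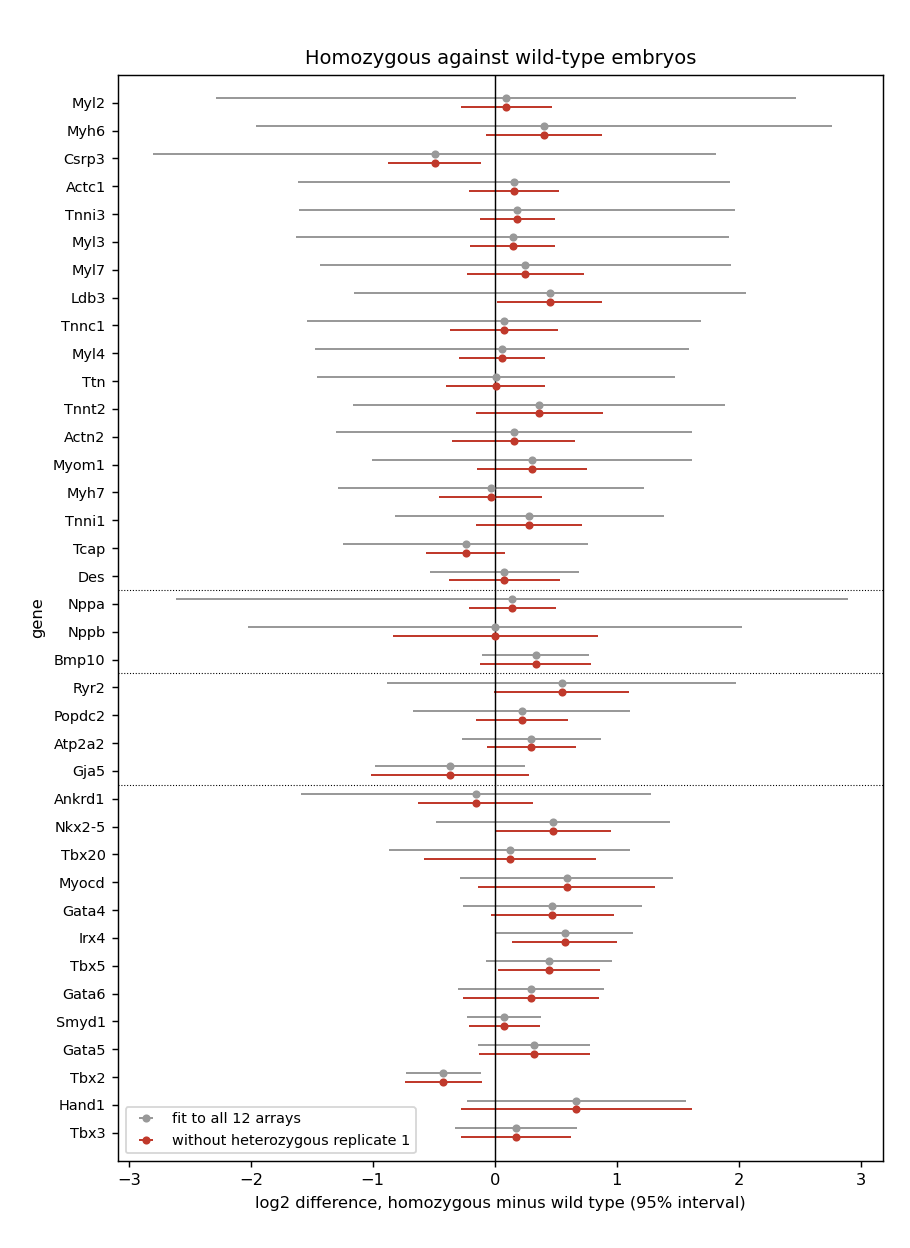
Difference of homozygous minus wild type in log2 signal for the 38 genes, with 95% intervals, from the fit to all 12 arrays (grey) and to 11 arrays without heterozygous replicate 1 (red). The estimates are the same, and the intervals narrow from a median width of 2.36 to 0.894.

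Heterozygous embryos were compared with wild type for a dose effect of the allele. None of the 38 passed the threshold in limma (smallest adjusted p = 0.333), where 0.00886% of all genes did, and 0 reached an unadjusted p under 0.05, as 15.4% of all genes did. The median was -0.65, with 32 of 38 lower and contractile genes at -0.96, and these values moved with the 1 array: without it the median was 0.08, 25 of 38 were higher, 0 passed (0.00886% of genes) and 0 had an unadjusted p under 0.05 (13.8%), and the contractile median was 0.02 (10 of 18 higher). Within slides the median was -1.30 on slide 1, which held the low array, and 0.06 and 0.27 on the others.

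Between homozygous and heterozygous embryos none of the 38 passed (smallest adjusted p = 0.826 in limma; 0.0133% of all genes passed), and 0 had an unadjusted p under 0.05 (6% of all genes). The median was 0.81, with 34 of 38 higher, and 0.15 with 28 higher without the low array. In that fit 0 of the 38 passed (0.0266% of genes did) and 2 reached an unadjusted p under 0.05, against 5.68% of genes. Nppa was 0.48 ± 0.17 (SE) higher in homozygotes by its estimate (adjusted p = 0.812) and Csrp3 0.46 ± 0.19 lower (adjusted p = 0.830).

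The spread within a genotype showed the same array. The median SD of the 38 genes was 1.44 in heterozygotes, 0.281 in wild type and 0.284 in homozygotes, and 0.315 in the 3 remaining heterozygotes. The heterozygous SD was the largest of the 3 for 33 of the 38 genes, 86.8%, as for 44.7% of all genes.

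Some heart muscle genes outside the 39 passed the threshold, though none of them under every setting. Their list was chosen with earlier results of these data known, so its counts are not a test of the list. The part of other muscle in these values was not tested. In homozygous embryos, of 35 tested genes of the other heart muscle list, 3 fell (Sln, Tecrl and Cox8b) and 1 rose (Casq2) with all 12 arrays; without heterozygous replicate 1, 5 fell and 1 rose. The background was 1.35% of all genes, and the median of the list was 0.06. Pln and Trdn were the 2 further genes and were picked after their values were seen. Sln, Cox8b, Pln and Trdn were well above background on all 4 arrays in wild type alone. They entered the tests only through the genotype where they were higher, so their fall is not support apart from that filter. Tecrl and Casq2 were well above background on all 4 arrays of each genotype. Tecrl, an enoyl reductase-like protein of the endoplasmic reticulum whose mutations cause arrhythmia, gave -1.69, -1.71, -1.83 and -1.43 in wild type, -5.21, -2.79, -2.81 and -2.87 in heterozygotes and -4.08, -4.38, -4.23 and -4.27 in homozygotes. The 3 genotypes did not overlap, apart from the low array.

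Tecrl fell by 2.57 ± 0.44 (SE) in homozygotes (limma adjusted p = 0.0159), and without the low array by 2.57 ± 0.11 (adjusted p = 1.91e-06). In that fit it also fell by 1.16 ± 0.11 in heterozygotes (adjusted p = 0.0169) and by 1.41 ± 0.11 from heterozygotes to homozygotes (adjusted p = 0.00226), steps that did not pass with all 12 arrays (adjusted p = 0.237 and 0.871). Trdn, triadin, a partner of the calcium release channel, gave -4.15, -3.81, -3.91 and -4.26 in wild type, -8.27, -4.53, -4.49 and -4.94 in heterozygotes and -6.00, -6.66, -6.22 and -6.74 in homozygotes. Its homozygous difference was -2.37 ± 0.67 with all arrays (adjusted p = 0.120) and -2.37 ± 0.18 without the low one (adjusted p = 0.000183). Trdn was well above background on 3 of 4 homozygous arrays. On heterozygous replicate 1 it was not, and was at least 4.48-fold below the median of the other 11 arrays. Pln, phospholamban, which restrains the calcium pump, gave -4.59, -4.88, -4.72 and -4.19 in wild type, -8.67, -5.54, -5.58 and -5.88 in heterozygotes and -7.15, -7.21, -6.60 and -6.76 in homozygotes. It was not well above background in any homozygote, and lay at least 4.73-fold lower there (adjusted p = 0.0740 with all arrays and 0.000183 without the low one).

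Sln, sarcolipin, which also restrains the pump, was at least 2.50-fold lower in homozygotes (adjusted p = 0.00717) and Cox8b, a cytochrome oxidase subunit of striated muscle, at least 1.92-fold lower (adjusted p = 0.00971). Each of these bounds sets the wild-type mean against the lowest signal well above background on the homozygous arrays. Casq2, cardiac calsequestrin, was a dim probe at -5.88, -6.20, -6.14 and -6.34 in wild type, -5.93, -5.76, -5.54 and -5.84 in heterozygotes and -4.97, -4.97, -5.30 and -5.17 in homozygotes, a rise of 1.04 ± 0.13 (adjusted p = 0.00245). With normexp background correction the Casq2 difference was -0.073. With normexp Sln and Cox8b did not pass either (adjusted p = 0.196 and 0.400), and Tecrl did (0.00843). None of the 6 genes passed with array position or the title number as a block. Tecrl was then at -2.32 ± 0.75 (SE, adjusted p = 0.948) and -2.97 ± 0.46 (adjusted p = 0.0802), and over all 25 settings the size of its difference was 1.90 to 2.97. Casq2 was at 1.01 ± 0.25 (adjusted p = 0.530) and 1.03 ± 0.19 (adjusted p = 0.133) with the same blocks, and for Cox8b the adjusted p was 0.948 and 0.0598. Tecrl passed under 19 of 25 settings, counting the main fit and the value table, which held the same signals. It also missed the threshold without wild-type replicate 1 or 4 or homozygous replicate 2 or 3 (adjusted p = 0.0503 to 0.0642). The first position of a slide held 3 wild-type arrays and no other genotype. Ryr2 and Atp2a2, which act in the same calcium store, did not pass, at 0.55 ± 0.66 and 0.30 ± 0.26.

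**Figure D5:**
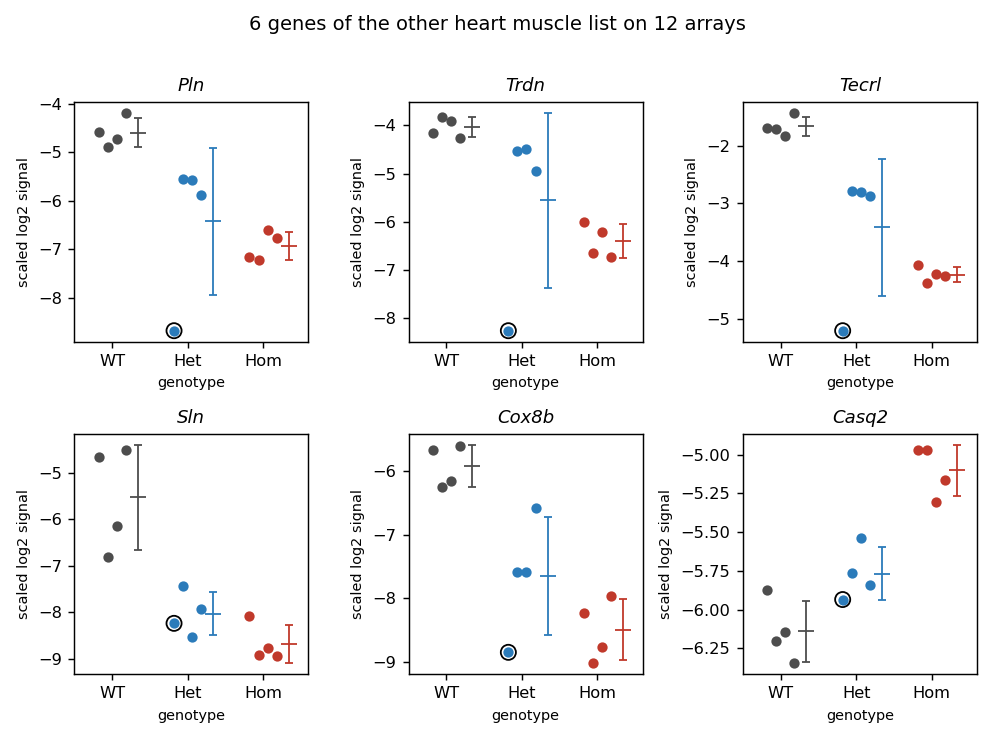
Scaled log2 signal of 6 genes of the other heart muscle list on each array, by genotype, with mean and SD. The black circle marks heterozygous replicate 1. Tecrl steps down from wild type (-1.83 to -1.43) through the other heterozygotes (-2.87 to -2.79) to homozygotes (-4.38 to -4.08).

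Lists for the tissues that feed or surround the heart muscle, also chosen with earlier results known, were read in homozygous minus wild type. Of 18 second heart field genes 3 were lower past the threshold, where 0.864% of all genes were. They were Fgf10, a growth factor of that field, at -1.35 ± 0.15 (SE, limma adjusted p = 0.00128), the guidance cue Sema3c at -1.04 ± 0.14 and Isl1, the field's defining homeobox gene, at -0.80 ± 0.15 (adjusted p = 0.0307). In all, 15 of the 18 were lower, as were 10503 of all 22575 genes, with a list median of -0.19. Of 10 epicardial genes 2 fell, Sema3d (-1.79 ± 0.17) and Gpm6a (-0.98 ± 0.17, adjusted p = 0.0177). Isl1 and Gpm6a missed the threshold without wild-type replicate 1 or 4 or homozygous replicate 2 or 3, Isl1 also without wild-type replicate 2 and Gpm6a without homozygous replicate 1 (adjusted p = 0.0504 to 0.101). None of these 5 passed once array position was a block. Sema3d alone did with the title number in its place. Sema3d, Isl1 and Gpm6a did not pass with normexp, where Sema3d was at -0.92, nor did Isl1 with no filter on dim probes. Under the 2 blocks Fgf10 was at -1.23 and -1.49 and Sema3c at -1.16 and -1.20. In limma 0 of 22 endocardial and 0 of 18 Bmp and Notch genes passed, with 3 and 4 at an unadjusted p under 0.05, where 17% of all genes were. The smallest p among them, none past the threshold after adjustment, were those of the endothelial genes Emcn (-0.36 ± 0.12) and Sox17 (-0.53 ± 0.18), the Notch ligand Jag1 (-0.35 ± 0.11) and the Notch target Hey1 (-0.33 ± 0.12). Of the other markers, 5 of 15 skeletal muscle genes (Myot, Myog, Tnnc2, Myf6 and Myh3) and 1 of 5 limb genes (Prrx1) fell, where 0.864% of all genes did. Tnnc2 was well above background on all 12 arrays, Myog on 9, Myf6 and Myh3 on 8 and Myot on 4. A gene not above background on every array can enter the tests through the genotype where it is higher. The skeletal count is therefore not support apart from that filter. Of 7 trophoblast genes 1 rose (Tfap2c), where 0.487% of all genes did, and none of the smooth muscle, erythroid or liver bud genes passed. The part of those tissues in the values of the regulators they share with the heart was not tested. Nor was the part of other tissues in the second heart field and epicardial values.

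Genes outside the 39 were ranked by how closely their levels followed the mean of the contractile genes. Likeness was Pearson's r over the arrays, given as a description, since the arrays share slides and scaling. Over the 11 arrays without heterozygous replicate 1, a choice made after seeing the data, 5 of 14981 genes reached 0.9: Thbs4 (0.961), Trim54 (0.936), Apobec2 (0.908), Mybpc3 (0.903) and Hspb7 (0.901). Over all 12 arrays 55 did, and the 10 most alike were Apobec2 (0.997), Kcnj5 (0.995), Hspb2 (0.995), Mybpc3 (0.994), Myh8 (0.993), Casq1 (0.985), Srpk3 (0.985), Hspb7 (0.983), Sphkap (0.982) and Thbs4 (0.982). The values over 12 arrays turn on the low array, as the counts of 55 and 5 show. Apobec2, a deaminase-like protein of striated muscle, was not well above background on it and at least 13.8-fold lower, and its homozygous difference from wild type was 0.28.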

How the data were processed

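Gene expression was measured on 12 one-colour (Cy3) Agilent arrays, quantified with Agilent Feature Extraction 10.7.3.1, per the file headers, which also record background correction. The submitters' processing notes also name limma. The deposited intensity values (processed signal, linear, not scaled between arrays) were the same as in the deposited value table, with a largest relative difference of 0.

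From them, log2 of the intensity minus each array's 75th percentile was computed, without the 1377 control spots and the 171 to 386 spots flagged per array. Spots of a probe were averaged. Of 39429 probes, 26055 were named by accession through a RefSeq gene table (GRCm38.p6). A probe entered the tests if every array of 1 genotype or more showed it well above background, and a gene's brightest probe was used. limma 3.58.1 (R 4.3.3) fitted 1 mean per genotype over the 12 arrays, with Benjamini-Hochberg adjustment over 22575 genes or identifiers and a threshold of 0.05. The script was tested on simulated data. For a probe not well above background in a genotype, or on the 1 array described, the fold is a bound, from the higher, per array, of its own signal and the lowest signal well above background. The number of arrays limits the precision.

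The member genes and the gene lists were chosen with earlier results of these data known. Members with values on every array were the 6 with the largest SD over the 12 arrays and the 2 with the smallest p of each role; Nkx2-5, Tbx5, Tbx3 and the list genes' values on heterozygous replicate 1 were added after values were seen. Genes of the lists are named for the threshold or as the 2 with the smallest p. Alternatives were normexp background correction (offset 50, run on the median spot signal), quantile and median scaling, other filters, the value table, blocks for slide, position or title number, other variance models, only the genotypes compared and leaving out each array. Promoter sequences are from RefSeq. Figures were drawn with matplotlib 3.10.9.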

Additional observations from a re-analysis of the deposited data

Results flagged for a closer look

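In 19 of 117 sets of 4 arrays (1 gene in 1 genotype), 1 array lay apart, with a gap to its nearest neighbour that took up most of the range. Chance gives about 1 in 20 such sets, and over all genes the share was 5.21% in wild type, 5.69% in heterozygotes and 5.14% in homozygotes. In 14 of the 38 tested genes the array apart was heterozygous replicate 1, as the lowest, against 0.673% of all genes.

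The gap as a share of the range in heterozygotes was 0.922 for Myh6, 0.937 for Myl2, 0.922 for Myl3, 0.917 for Myl4 and 0.915 for Myl7, the myosin genes. It was 0.871 for Tnnt2, 0.947 for Tnni3 and 0.980 for Tnnc1, the troponins, and 0.880 for Actc1, 0.839 for Ttn and 0.864 for Csrp3. It was 0.956 for Nppa, 0.896 for Nppb and 0.868 for Ryr2. In wild type, replicate 1 was lowest for Ttn (0.877) and replicate 3 highest for Myocd (0.966). In homozygotes, replicate 3 was highest for Tcap (0.882), replicate 2 for Bmp10 (0.851) and replicate 1 for Tbx5 (0.937).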

How the results depend on the processing

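No cardiac gene of the 38 passed the threshold under any of the 25 settings run, with a smallest limma adjusted p of 0.0816 for homozygous minus wild type, 0.164 for heterozygous minus wild type and 0.510 for homozygous minus heterozygous. The count over all genes moved more. For homozygous minus wild type it was 305, and 90 with normexp background correction, 188 with no filter on dim probes, 20 with array position as a block, 19 with the title number as a block, 553 with array weights and 112 to 447 when 1 array was left out. With the title number as a block the median of the 38 in that comparison was -0.25 in place of 0.18. When 1 array was left out, that median was 0.11 to 0.28, against -1.01 to 0.08 in heterozygous minus wild type and 0.15 to 1.11 in homozygous minus heterozygous. For heterozygous minus wild type the count was 2, and 1 with normexp, with probes well above background on all 12 arrays, with another variance model and with only the 2 genotypes compared, 5 with no filter and with slide as a block, 0 with the title number and 0 to 3 when 1 array was left out. For homozygous minus heterozygous it was 3, and 0 with normexp, position, title number or only the 2 genotypes, 8 with array weights and 1 to 6 when 1 array was left out. The median SD of the 38 in heterozygotes, 1.44, was 0.315 to 1.74. The contractile median on heterozygous replicate 1, -3.99, was -3.51 with normexp, and the Casq2 difference, 1.04 in homozygotes, became -0.073. The cause of these shifts was not tested. The labels give no replicate number, and the title number, shared by genotypes in 3 sets of arrays, was fitted as a block although its meaning is not given. Casq2 is a dim probe, and its value changed under the normexp setting. That setting also added an offset and used the median spot signal, and the part of each was not tested.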
